A study of Homo sapiens with 12 samples.

Results

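Triptolide binds the XPB subunit of the general transcription factor TFIIH and blocks initiation by RNA polymerase II, so the polyadenylated RNA found in a cell hours after its addition was mostly made before. Each transcript then decays at its own rate, fast for immediate early genes and slow for ribosomal protein genes. NUP93 is a scaffold protein of the inner ring of the nuclear pore, the channel through which mRNA leaves the nucleus. The comparison asked how much mRNA remained, and which transcripts it contained, in cells that had received a guide RNA against NUP93 (NUP93-KO) and in cells that had received a nontargeting guide (NONT), both after 8 h of 1 μM triptolide.

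The 4 libraries compared were 2 NUP93-KO and 2 NONT replicates among the 12 of the series, all from U2OS, a human osteosarcoma line. The cells carried Cas9 and the guide on a transiently transfected pX330-puro plasmid and were selected with puromycin for 2 days, so NUP93-KO is a selected pool rather than a clone, and it can hold unedited cells. The same pools without drug, and EXOSC5-KO pools with and without drug (EXOSC5 is a subunit of the RNA exosome, which degrades RNA from the 3′ end), complete the series. The labels do not say that replicates came from separate cultures, so p-values measure the spread between these libraries, which may be technical. Of 22379 genes, 11848 had a mean of at least 10 over the 4 libraries and were tested. They held 99.8% of the signal. Both guides are printed because they define the groups. Lower case marks the guide and capitals mark the PAM, which the genome supplies.
NUP93 guide: gaacttacaggagatccagcAGG
NONT guide: cggcggtcacgaactccagc
The NUP93 guide had 1 exact match in GRCh38, at chr16:56748340-56748359 on the plus strand, in coding exon 2 of NUP93. The NONT guide had 0 exact matches there.

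Values were read on 2 scales. The deposited spike-in scale sets each library by its ERCC RNAs, which were added by cell number, so it follows mRNA per cell. On this scale a miscounted or mispipetted library moves as a whole, and fewer cells and less RNA per cell cannot be told apart. The same-total scale sets the gene sum of every library to 1 value, the mean over the 4 libraries, so it follows the share of each transcript in the pool. Differences are NUP93-KO minus NONT in log2(value + 1), with the SE of a limma fit over 12 libraries and a Benjamini-Hochberg adjusted p-value over all genes tested. The threshold was 0.05. The pseudocount of 1 understates differences of low genes.

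The 4 libraries held 8.88 M to 10.2 M reads by an approximate count, where M stands for 1e6, and 15795 to 15974 genes had a value above 0. The ERCC sums lay between 40329 and 41381, a closeness that the spike-in scaling itself sets. Mesenchymal markers were abundant, with summed same-total values of 61197 and 62334 in NUP93-KO and 70568 to 74997 in NONT. The 6 epithelial markers summed to 91.3 and 111 in NUP93-KO and 70.7 and 110 in NONT, with KRT19 at 0. Blood markers summed to 0.738 and 0.799 in NUP93-KO and at most 5.06 in NONT, with LYZ and CD3E at 0 in all 4 libraries. Neural markers summed to 224 and 261 against 225 and 340. Libraries of NUP93-KO and NONT thus overlapped in epithelial and neural markers, and no blood marker reached the level tested.

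NUP93 itself was examined first. Its transcript comes from chr16:56730118-56850286 on the plus strand of GRCh38. On the spike-in scale it stood at 801 and 1019 in NUP93-KO and at 1007 and 899 in NONT, so the groups overlapped and the difference was -0.07 ± 0.21 (SE, limma adjusted p = 0.756). At the same total it stood at 678 and 807 in NUP93-KO and at 1181 and 1278 in NONT. Both NUP93-KO libraries lay below both NONT libraries there, and the difference was -0.73 ± 0.09 (limma adjusted p = 0.00156). Without drug the difference at the same total was -0.45 ± 0.09 (limma adjusted p = 0.0424). NUP93 mRNA was therefore still abundant in these pools, and its level does not measure editing of the gene.

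On the spike-in scale more mRNA signal was present in NUP93-KO. The summed gene signal was 8.22 M and 8.79 M in NUP93-KO and 5.94 M and 4.90 M in NONT. The means were 8.51 M ± 0.402 and 5.42 M ± 0.735 (SD, n = 2), a ratio of 1.57 that ran from 1.39 to 1.80 over the 4 pairings of libraries. The groups did not overlap, but 2 libraries against 2 allow no p below 0.333, which is the value of the exact two-sided permutation test. Without drug the ratio was 0.909, and its pairings ran from 0.730 to 1.17, on both sides of equality.

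As a share of the untreated sum of the same pool, 67.4% remained in NUP93-KO (pairings 62.1% to 73.2%) and 39.0% in NONT (29.8% to 52.4%). The 2 NONT untreated libraries were far apart, at 11.3 M and 16.4 M, and this width is carried into the NONT share. Over the 11805 tested genes with an untreated mean of at least 10, the median share left per gene was 57.4% in NUP93-KO and 34.5% in NONT. Under 10% was left for 520 genes in NUP93-KO (4.40%) and for 1371 genes in NONT (11.6%). At least as much as without drug was left for 921 genes in NUP93-KO (7.80%) and for 77 genes in NONT (0.652%). Without regard to the level after triptolide, 13706 genes had such an untreated mean. The filter on the compared libraries thus left out genes that fell far, and a gene could pass it through NUP93-KO alone. Over all 13706 genes the median shares would be lower and more genes would lie under 10%.

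The extra signal was spread over the kinds of transcript. The summed cytosolic ribosomal protein genes, which encode the ribosome and have stable mRNAs, stood at 0.788 M and 0.862 M in NUP93-KO and at 0.569 M and 0.493 M in NONT, a ratio of 1.55 (pairings 1.39 to 1.75). The 13 mitochondrially encoded mRNAs are transcribed by the mitochondrial polymerase and not by RNA polymerase II. They summed to 0.0912 M and 0.0873 M in NUP93-KO and to 0.0602 M and 0.0579 M in NONT, a ratio of 1.51 (pairings 1.45 to 1.58). Transcripts of both polymerases were thus higher by a similar factor on this scale, and no group overlapped. Whether cell number, spike-in volume or mRNA per cell set this common factor was not tested. Without the mitochondrial mRNAs the ratio of all genes was again 1.57, and without the 100 genes of highest mean it was 1.58. Set against their untreated sum, the mitochondrially encoded mRNAs stood at 123% in NUP93-KO (pairings 117% to 130%). In NONT they stood at 75.2% (58.5% to 104%). Ribosomal protein genes stood at 93.6% in NUP93-KO and 57.4% in NONT. The share left on this scale thus also differed for a class that RNA polymerase II does not make.

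**Figure D1:**
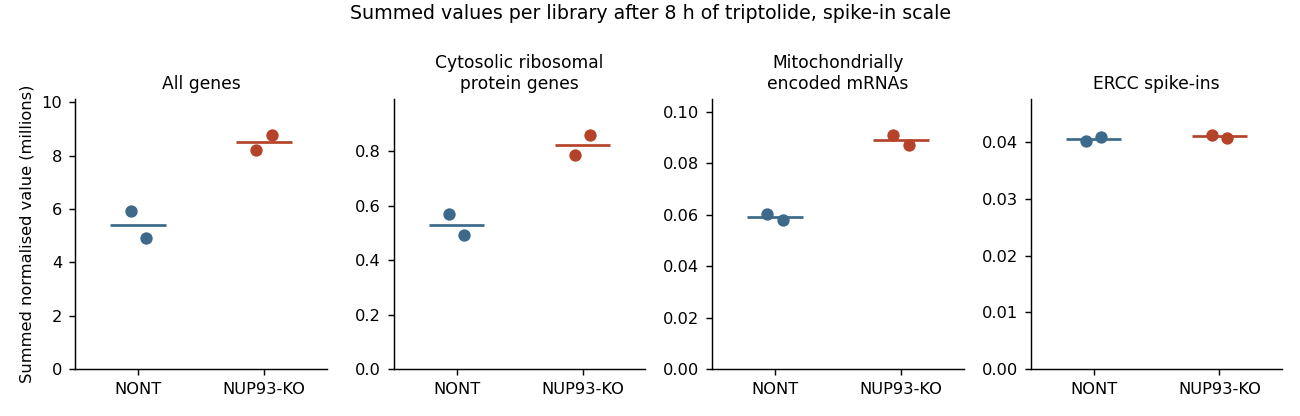
Summed spike-in-normalised value per library in units of M (vertical axis) after 8 h of triptolide for NONT and NUP93-KO, with 1 point per library and a line at the mean. Gene sums are 5.94 M and 4.90 M in NONT and 8.22 M and 8.79 M in NUP93-KO. The ERCC sums of both groups lie between 40329 and 41381 because the values were scaled on these RNAs, so they are no independent control.

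On the spike-in scale nearly the whole transcriptome lay higher in NUP93-KO. The limma fit called 5976 genes higher (50.4% of those tested) and 16 lower (0.135%), and at an unadjusted p below 0.05 the counts were 7185 (60.6%) and 28 (0.236%). Without drug it called 7 genes higher (0.0591%) and 5 lower (0.0422%), beside 195 (1.65%) and 308 (2.6%) unadjusted, and the median was -0.09. The test of the difference between these contrasts called 879 genes higher (7.42%) and 7 lower (0.0591%), beside 5568 (47.0%) and 18 (0.152%) unadjusted. The difference was positive for 95.6% of genes, with a median of 0.66 over genes and of 0.49 to 0.83 in single pairings of libraries. The libraries of the groups were apart for 81.5% of genes with NUP93-KO higher and for 0.836% with NUP93-KO lower. NONT replicate 2, the library with the smallest sum, carried much of the count: without it 957 genes were called higher. Without NUP93-KO replicate 1 the count was 3178, without NUP93-KO replicate 2 it was 1448, and without NONT replicate 1 it was 6036. The 2 NONT libraries differed from each other by a median of 0.26 and the 2 NUP93-KO libraries by -0.08 (replicate 1 minus 2).

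**Figure D2:**
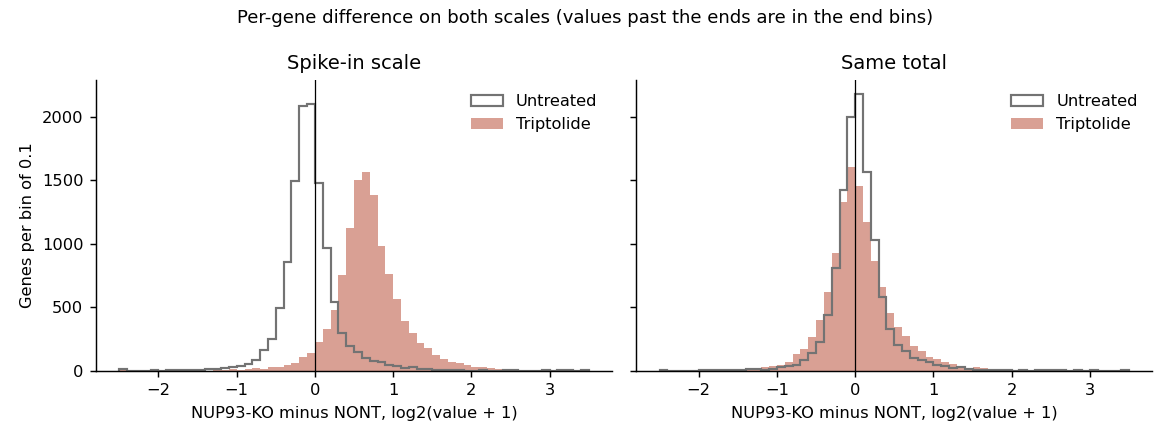
Number of genes (vertical axis, bins of 0.1) by NUP93-KO minus NONT difference in log2(value + 1), with triptolide filled and untreated outlined, on the spike-in scale (left) and at the same total (right). After triptolide the spike-in distribution centres on 0.66, and at the same total it centres on 0.01.

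Against this shift, 16 genes were lower on the spike-in scale. Among them CNN1, which encodes the smooth muscle actin-binding protein calponin, stood at 387 and 389 in NUP93-KO and at 709 and 562 in NONT, a difference of -0.70 ± 0.22 (limma adjusted p = 0.0161). TNNC1, a troponin C, stood at 134 and 153 against 240 and 231 (-0.72 ± 0.28, limma adjusted p = 0.0414). C1orf198 stood at 96.7 and 85.1 against 141 and 145 (-0.65 ± 0.25, limma adjusted p = 0.0366). The groups of these 3 genes did not overlap, which the naming rule required. TNNC1 and C1orf198 lost their calls whichever library was left out (adjusted p = 0.0957 to 0.162 and 0.0734 to 0.181). CNN1 kept its call without NONT replicate 2 (adjusted p = 0.0458) and lost it without NONT replicate 1 (0.0932) and without NUP93-KO replicates 1 and 2 (0.0679 and 0.0877). FAM83H had the largest difference, but it stood at 9.62 and 0 in NUP93-KO and at 286 and 67.1 in NONT, and without drug at 25.4 and 186 in NUP93-KO and 8.55 and 0 in NONT, so its values did not repeat within groups.

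The 5 genes of largest spike-in difference among those higher were less even between replicates than the genes described below. TCN1, which encodes the vitamin B12 carrier haptocorrin, was the exception, at 226 and 204 in NUP93-KO and 37.1 and 28.4 in NONT (2.69 ± 0.34, limma adjusted p = 5.44e-05). CTSF, a cathepsin, stood at 188 and 218 in NUP93-KO but at 72.4 and 7.30 in NONT. EHMT2, a histone methyltransferase, stood at 211 and 51.4 in NUP93-KO and at 4.17 and 25.5 in NONT. The remaining pair were the unmatched IDs ENSG00000273889, at 421 and 502 against 1.81 and 119, and ENSG00000235715, at 13.1 and 318 against 6.62 and 7.80. EHMT2 lost its call without NONT replicate 1 (adjusted p = 0.103) and without NUP93-KO replicate 1 (0.113), and ENSG00000235715 without NUP93-KO replicate 2 (0.443) and NONT replicate 2 (0.0665). Apart from TCN1 none of the 5 passed the threshold at the same total.

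At the same total the differences centred near 0, which the scaling itself sets. The median difference over genes was 0.01, and 50% of genes lay between -0.19 and 0.26. The limma fit called 509 genes higher (4.3%) and 343 lower (2.9%). Counts of called members in the lists below are to be read beside these shares. At an unadjusted p below 0.05 the counts were 1458 (12.3%) and 1177 (9.93%). When libraries were scaled to their mitochondrially encoded mRNAs instead, 137 genes were called higher and 20 lower, a split that leaned further towards higher calls. With only the 4 triptolide libraries in the fit, 58 were called higher and 24 lower. The groups did not overlap for any called gene, which is no support, since over all genes 25.1% did not overlap with NUP93-KO higher and 23.4% with NUP93-KO lower.

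Part of this difference was present before the drug. Without triptolide the fit called 89 genes higher (0.751%) and 51 lower (0.43%) at the same total, beside 875 (7.39%) and 531 (4.48%) unadjusted. Of the 509 higher genes, 69 were also called higher without drug, which is 13.6% of the former and 77.5% of the latter. Of the 343 lower genes, 39 were also called lower without drug, or 11.4% and 76.5%. The untreated difference was positive for 425 of the 509 higher genes (83.5%), beside 55.0% of all tested genes, and negative for 301 of the 343 lower genes (87.8%), beside 45.0%. The median untreated difference was 0.23 for the higher genes, whose median after triptolide was 0.73, and -0.20 for the lower genes, whose median after triptolide was -0.49. Both sets were picked by their triptolide values, which favours a larger median there.

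The 12 higher genes of largest difference, among 380 past the threshold with a group mean of at least 100, are described first. Genes named by this rule had no overlap between groups, so their separation is no support. TCN1 stood at 191 and 161 in NUP93-KO and at 43.5 and 40.3 in NONT (2.04 ± 0.28, limma adjusted p = 0.00268). GADD45A, a stress-induced regulator of growth arrest, stood at 121 and 123 against 29.7 and 32.0 (1.95 ± 0.12, limma adjusted p = 4.54e-05). CXCL8, the neutrophil chemokine interleukin 8, stood at 246 and 267 against 57.5 and 93.2 (1.79 ± 0.25, limma adjusted p = 0.00313). In each of these the 2 NUP93-KO libraries were alike and lay well above NONT.

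TNFRSF11B, which encodes the decoy receptor osteoprotegerin, stood at 379 and 493 in NUP93-KO and at 115 and 134 in NONT (1.79 ± 0.15). A2M, the protease inhibitor alpha-2-macroglobulin, stood at 722 and 738 against 265 and 180 (1.74 ± 0.18). CCL2, a monocyte chemokine, stood at 158 and 173 against 49.1 and 51.7 (1.69 ± 0.19). None of these overlapped between groups, which their selection required, and all are secreted. ESM1, a secreted proteoglycan, stood at 342 and 350 against 125 and 91.8 (1.68 ± 0.19). SAA1, an acute-phase protein, stood at 230 and 279 against 75.4 and 99.2 (1.54 ± 0.18).

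ITGA2, a collagen-binding integrin subunit, stood at 1456 and 1156 in NUP93-KO and at 419 and 412 in NONT (1.64 ± 0.11). ITGA1, a related subunit, stood at 111 and 101 against 22.2 and 37.5 (1.84 ± 0.34). ETV6, an ETS-family transcriptional repressor, stood at 156 and 151 against 49.6 and 48.4 (1.63 ± 0.13). CCN1 completes the 12 and is given with the immediate early genes. Of the 12, 11 stayed past the threshold in every fit that left out 1 library. ITGA1 did not: its adjusted p was 0.0583 without NUP93-KO replicate 1 and 0.0589 without NUP93-KO replicate 2.

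Several of the 12 also differed without drug. TCN1 differed by 1.92 (limma adjusted p = 0.0102), TNFRSF11B by 1.45 (limma adjusted p = 0.00242), SAA1 by 1.45 (limma adjusted p = 0.00506) and ITGA2 by 1.02 (limma adjusted p = 0.00255). In contrast GADD45A differed by 0.40 (limma adjusted p = 0.193), ETV6 by 0.40 (limma adjusted p = 0.235) and CCN1 by -0.09 (limma adjusted p = 0.945).

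Immediate early genes, whose short-lived mRNAs encode transcription factors and signalling proteins, held several of the largest differences. Of 34 listed genes 13 had a mean of at least 10 over the compared libraries, of which 8 were called higher and 0 lower. Because this filter uses the compared values, members such as MYC, JUNB and PPP1R15A passed it through NUP93-KO alone, which tilts the count towards higher. Genes were therefore also selected on the untreated NUP93-KO and NONT libraries (mean of 10 or more), an alternative chosen after seeing the data. Of the 34 genes 28 were then tested, 9 were called higher and 0 lower by limma, beside 3.74% and 2.41% of all 13706 genes so kept. Their median difference was 0.72, beside 0.02 over all those genes and 0.08 for the 28 without drug. FOSL2 was not called there (limma adjusted p = 0.0516), and the calls of HES1 and SIK1 rest on NONT values of at most 2.11 and 0.498. MYC stood at 23.1 and 26.6 in NUP93-KO and at 2.80 and 2.47 in NONT (2.83 ± 0.19, limma adjusted p = 6.39e-05). Without drug MYC stood at 628 and 612 in NUP93-KO and 535 and 606 in NONT (0.12 ± 0.19, limma adjusted p = 0.906). Of the untreated spike-in value of MYC, 2.71% was left in NUP93-KO and 0.179% in NONT.

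PPP1R15A, the stress-induced subunit that directs a phosphatase to eIF2, stood at 59.6 and 59.4 in NUP93-KO and at 6.56 and 0 in NONT (4.46 ± 0.80, limma adjusted p = 0.00941). CCN1, a secreted matricellular protein, stood at 110 and 141 against 25.8 and 40.4 (1.92 ± 0.21, limma adjusted p = 0.000941). JUNB, an AP-1 factor, stood at 13.3 and 16.5 against 3.53 and 3.47 (1.82 ± 0.24, limma adjusted p = 0.00234). The groups did not overlap in any of them, as held for every gene called at the same total. IER2, KLF10, FOSL2 and CCN2 were also called higher, by 0.98, 0.96, 0.64 and 0.63, whereas ATF3 (0.05), NR4A1 (-0.03) and SRF (-0.33) did not pass the threshold.

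Several NONT values in this list rest on few reads, since the approximate worth of 1 read on the spike-in scale was 0.600 and 0.482 in the NONT libraries and MYC stood there at 2.39 and 1.74. CCN2, IER2, JUNB, CCN1 and MYC stayed past the threshold whichever library was left out. The number of called members fell to 7 and 5 without NUP93-KO replicates 1 and 2, and to 6 without either NONT replicate. PPP1R15A lost its call without NUP93-KO replicate 2 (adjusted p = 0.0576). FOSL2 lost it without NUP93-KO replicate 2 (0.245) and either NONT replicate (0.0595 and 0.2), and KLF10 whichever library was left out (0.0521 to 0.112). MCL1 and WEE1, also short-lived, were not called: MCL1 stood at 47.1 and 21.9 in NUP93-KO and at 17.5 and 39.0 in NONT, and WEE1 at 12.4 and 18.3 against 11.6 and 20.1. Both groups overlapped for both genes.

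The test of the difference in response asked where the NUP93-KO minus NONT difference after triptolide departed from that without drug. At the same total it called 2 genes higher (0.0169%) and 0 lower by limma, beside 640 (5.4%) and 547 (4.62%) at an unadjusted p below 0.05. They were MYC (2.71 ± 0.27, limma adjusted p = 0.0148) and GADD45A (1.55 ± 0.17, limma adjusted p = 0.019). Without NUP93-KO replicate 2 the adjusted p was 0.055 for both and no gene was called, and without NONT replicate 1 the count was 57. For the other genes named here a difference of this kind was not detectable, which does not show that the drug left the gap between the pools as it was.

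Of 17 tested genes of the extracellular matrix, 9 were called higher, 1 lower and 7 not, with a median of 0.45, beside 0.03 without drug. Over all tested genes 4.3% were called higher and 2.9% lower. FN1, fibronectin, stood at 15311 and 18077 in NUP93-KO and at 9251 and 7508 in NONT (1.00 ± 0.09, limma adjusted p = 0.000376). LUM, the collagen-binding proteoglycan lumican, stood at 282 and 310 against 146 and 125 (1.12 ± 0.18, limma adjusted p = 0.00565). Neither overlapped between groups, as held for every called gene. COL4A2, a basement membrane collagen, differed by 1.00 and COL6A2, a microfibrillar collagen, by 0.89, but their NONT libraries were uneven, at 6879 and 3965 for COL4A2 and 1027 and 621 for COL6A2.

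COL1A1, the main chain of type I collagen and a marker of osteoblastic cells, was the member called lower. It stood at 14986 and 16203 in NUP93-KO and at 26649 and 21603 in NONT (-0.62 ± 0.10, limma adjusted p = 0.00473), and without drug the difference was -0.77 (limma adjusted p = 0.00506). COL12A1, a fibril-associated collagen, went from lower without drug (-0.60, limma adjusted p = 0.0183) to higher after it (0.45, limma adjusted p = 0.0239), the only gene called in opposite directions in the 2 conditions. The test of that change gave an adjusted p of 0.069, and the call after triptolide was lost without NUP93-KO replicates 1 and 2 (adjusted p = 0.0871 and 0.103) and without NONT replicate 2 (0.126). LAMC1, COL6A1, COL6A3, FN1 and LUM stayed called higher whichever library was left out. The count was 7 and 5 without NUP93-KO replicates 1 and 2, and 9 and 5 without NONT replicates 1 and 2.

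**Figure D3:**
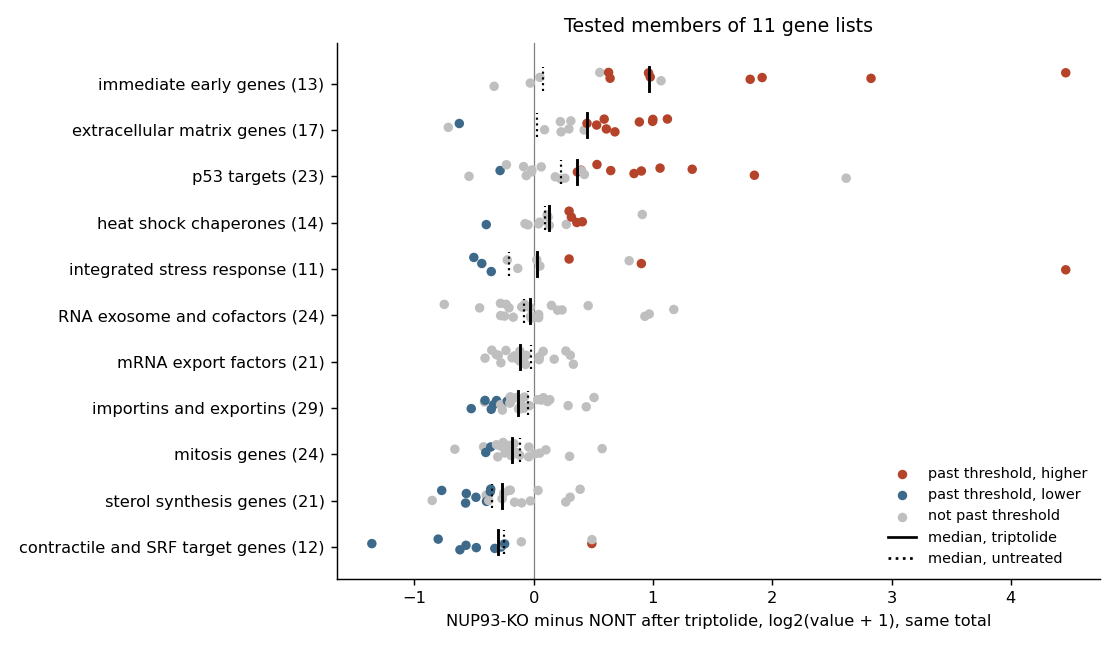
NUP93-KO minus NONT difference after triptolide at the same total, in log2(value + 1) (horizontal axis), for each tested member of 11 gene lists (rows, number tested in brackets), in red or blue past the adjusted threshold and grey otherwise. Solid lines mark the list median after triptolide and dotted lines the median without drug: over members that passed the filter, immediate early genes have medians of 0.08 without drug and 0.96 after it, and contractile genes of -0.24 and -0.30.

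Among p53 targets, 9 of 23 tested were called higher and 1 lower, beside 4.3% and 2.9% of all genes. Their median was 0.37, beside 0.23 without drug. GDF15, a secreted stress cytokine, stood at 57.4 and 80.7 in NUP93-KO and at 25.4 and 27.6 in NONT (1.33 ± 0.24, limma adjusted p = 0.00937). PLK2, a polo-like kinase, stood at 73.2 and 50.5 against 9.95 and 25.9 (1.85 ± 0.37, limma adjusted p = 0.0166). BAX, the apoptotic pore-forming protein, stood at 1611 and 1697 against 1243 and 896 (0.65 ± 0.12, limma adjusted p = 0.0136). No group overlapped in these 3 genes, but no higher call of the list survived every left-out library: 3 members were called without either NUP93-KO replicate, 6 without NONT replicate 1 and 5 without NONT replicate 2.

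CDKN1A, the cell cycle inhibitor p21 and the best known target of p53, ran the other way. It stood at 1065 and 1016 in NUP93-KO and at 1269 and 1260 in NONT (-0.28 ± 0.05, limma adjusted p = 0.00941), and without drug it differed by 0.22 (limma adjusted p = 0.0726). Without NUP93-KO replicate 2 its adjusted p was 0.0703. Among the other apoptotic regulators, BCL2A1, an anti-apoptotic BCL2 relative, stood at 24.1 and 27.3 against 7.76 and 3.46 (2.09 ± 0.38, limma adjusted p = 0.0108), and was the 1 anti-apoptotic gene called of 10. BCL2A1 passed the filter on the compared libraries through NUP93-KO alone. With genes kept by the untreated libraries, 1 of 10 anti-apoptotic genes was called higher and 0 lower. Of the 18 pro-apoptotic genes tested 2 were called higher, BAX and the death receptor gene TNFRSF10B (0.40), and 0 lower, with a median of 0.03. BCL2A1 lost its call without NUP93-KO replicate 2 (adjusted p = 0.0641) and NONT replicate 2 (0.0526), BAX without NUP93-KO replicate 2 (0.0836) and TNFRSF10B without NUP93-KO replicate 1 (0.152) and either NONT replicate (0.0933 and 0.081).

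The integrated stress response list was split. Its transcription factor ATF4 (-0.35) and the amino acid synthesis genes ASNS (-0.50) and PSAT1 (-0.43) were called lower, and PPP1R15A, SESN2 (0.90) and HSPA5 (0.30) higher, of 11 tested with a median of 0.03. Without NUP93-KO replicate 2 none of the 6 was called. ATF4, ASNS and HSPA5 also lost their calls without NONT replicate 2 (adjusted p = 0.0546, 0.0562 and 0.161), and SESN2 and HSPA5 without NUP93-KO replicate 1 (0.0568 and 0.0785) and NONT replicate 1 (0.123 and 0.0815). Heat shock chaperones had 4 called higher and 1 lower of 14. The shares over all genes, for both lists, were 4.3% higher and 2.9% lower. HSPA8, the constitutive cytosolic HSP70, stood at 7692 and 7155 in NUP93-KO and at 5842 and 6074 in NONT (0.32 ± 0.05, limma adjusted p = 0.00408). HSPB1, the small chaperone HSP27, stood at 4528 and 4825 against 6052 and 6256 (-0.40 ± 0.05, limma adjusted p = 0.00244). These 2 calls held whichever library was left out, but not when libraries were scaled to mitochondrially encoded mRNAs (adjusted p = 0.237 and 0.344) or with only the 4 triptolide libraries in the fit (0.077 and 0.051), and that of HSPA8 not without the trend (0.0721).

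Of 12 tested contractile genes and targets of SRF, the factor that drives actin cytoskeleton genes, 8 were called lower, 1 higher and 3 not, and the median was -0.30, beside -0.24 without drug, when 5 were called lower. Among all genes 2.9% were called lower and 4.3% higher, and without drug 0.43% lower. CNN1 stood at 328 and 308 in NUP93-KO and at 832 and 799 in NONT (-1.36 ± 0.09, limma adjusted p = 7.28e-05). TPM1, a tropomyosin, stood at 3047 and 3049 against 5346 and 5269 (-0.80 ± 0.04, limma adjusted p = 3.75e-05). TAGLN, the actin-binding protein transgelin, stood at 2530 and 2469 against 3998 and 3679 (-0.62 ± 0.06, limma adjusted p = 0.000536). The groups did not overlap for these genes, as held for every called gene, so their separation is no support. ACTG1, cytoplasmic gamma-actin, stood at 16474 and 15456 against 22736 and 24571 (-0.57 ± 0.05, limma adjusted p = 0.000393).

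Without drug the differences were -1.60 for CNN1, -0.82 for TPM1 and -0.84 for TAGLN. The exception in direction was TPM2, another tropomyosin, at 8744 and 9619 against 7410 and 5771 (0.49 ± 0.10, limma adjusted p = 0.0191), a call lost without NUP93-KO replicate 2 (adjusted p = 0.118) and NONT replicate 2 (0.0731). CNN1, TPM1, TAGLN, ACTG1 and ACTB stayed called lower whichever library was left out, and the count was 7 and 5 without NUP93-KO replicates 1 and 2 and 7 and 6 without NONT replicates 1 and 2. On the spike-in scale only CNN1 of the list was called lower, and 2 members were called higher, beside 0.135% and 50.4% of all genes.

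The binding site of SRF is the CArG box. It was searched on both strands in RefSeq promoters (GRCh38.p14, 250 bases before to 50 after the start site), which were matched for 9 of the 12 genes. It was found in 3 of the 9 and in 101 of the 9151 promoters of tested genes. The matches are shown, with 25 bases on each side and the match in capitals, because the members differ in call while sharing the motif.
ACTG1: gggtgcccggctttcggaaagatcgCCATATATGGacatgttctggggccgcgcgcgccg
CNN2: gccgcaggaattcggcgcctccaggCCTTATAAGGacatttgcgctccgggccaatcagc
FLNA: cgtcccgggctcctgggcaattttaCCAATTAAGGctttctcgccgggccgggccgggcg
They lie at chr17:81512859-81512918 on the minus strand, chr19:1026494-1026553 on the plus strand and chrX:154374694-154374753 on the minus strand. ACTG1 (-0.57) and CNN2 (-0.27) were called lower, and FLNA (-0.10, limma adjusted p = 0.435) was not called. CNN2 lost its call without NUP93-KO replicate 2 (adjusted p = 0.252) and without either NONT replicate (0.0658 and 0.187). Among all genes called lower, 5 of 282 promoters held the motif, or 1.77%, and among those called higher 4 of 376, or 1.06%.

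Of 21 tested enzymes and regulators of sterol synthesis, 7 were called lower and 0 higher, while 14 were not called, with a median of -0.26, beside -0.35 without drug. Of all genes 2.9% were called lower and 4.3% higher. MSMO1, a sterol demethylase, stood at 387 and 275 in NUP93-KO and at 540 and 575 in NONT (-0.77 ± 0.16, limma adjusted p = 0.0171). LSS, lanosterol synthase, stood at 622 and 589 against 1014 and 798 (-0.57 ± 0.11, limma adjusted p = 0.0143). CYP51A1, lanosterol demethylase, stood at 820 and 646 against 1034 and 1121 (-0.56 ± 0.11, limma adjusted p = 0.0163). No group overlapped here, as held for every called gene. Only HMGCS1 and FDPS kept their calls whichever library was left out, and the count was 5 and 2 without NUP93-KO replicates 1 and 2 and 5 and 3 without NONT replicates 1 and 2.

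The 12 lower genes of largest difference, among 309 past the threshold with a group mean of at least 100, included CNN1. MYO9A, an unconventional myosin, stood at 33.9 and 36.5 in NUP93-KO and at 115 and 86.1 in NONT (-1.48 ± 0.18, limma adjusted p = 0.00154). PDLIM1, a PDZ-LIM adaptor of actin stress fibres, stood at 106 and 127 against 267 and 270 (-1.20 ± 0.15, limma adjusted p = 0.00156). TNNC1 stood at 113 and 121 against 281 and 328 (-1.37 ± 0.18, limma adjusted p = 0.00261). All 3 groups were apart, which the naming rule required. Without drug PDLIM1 differed by -1.26 (limma adjusted p = 0.00399) and TNNC1 by -1.51 (limma adjusted p = 0.00504), and MYO9A by 0.12 (limma adjusted p = 0.895).

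LIMS2, a focal adhesion adaptor, stood at 52.6 and 51.9 in NUP93-KO and at 115 and 124 in NONT (-1.18 ± 0.20). IREB2, an iron-responsive RNA-binding protein, stood at 56.9 and 65.3 against 136 and 115 (-1.03 ± 0.15). C1orf198 stood at 81.8 and 67.4 against 166 and 205 (-1.30 ± 0.19). These kept their calls, with CNN1, MYO9A, TNNC1 and PDLIM1, whichever library was left out. The other 5 of the 12 lower genes of largest difference did not. Their highest adjusted p was 0.198 for FAM83H and 0.0712 for AMOT without NUP93-KO replicate 2, 0.18 for PTPN9 and 0.149 for MOB3B without NUP93-KO replicate 1, and 0.222 for TCF4 without NONT replicate 2.

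Calls among nuclear pore genes were few in number, in short lists, and are to be read beside 2.9% lower and 4.3% higher of all genes. Of the 5 inner ring genes, NUP93 and NUP188 were called lower. NUP188, a neighbour of NUP93 in the ring, stood at 2073 and 2065 in NUP93-KO and at 2492 and 2506 in NONT (-0.27 ± 0.06, limma adjusted p = 0.0283). Among 9 genes of the Y complex, the outer ring, only AHCTF1 was called, at 155 and 147 against 95.2 and 87.5 (0.72 ± 0.10, limma adjusted p = 0.00372). AHCTF1 encodes ELYS, which recruits the pore to chromatin. NUP98 (-0.54) was the 1 call among 11 genes of the central channel and cytoplasmic side, and 0 of 7 basket and membrane ring genes were called by limma, with 1 higher and 0 lower unadjusted.

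Importins and exportins, which carry proteins through the pore, had 6 called lower and 0 higher of 29, with a median of -0.13, beside -0.05 without drug. Of all genes 2.9% were called lower and 4.3% higher. At an unadjusted limma p below 0.05, 12 members were lower and 4 higher, beside 9.93% and 12.3% of all genes. KPNB1, importin beta, stood at 3564 and 3777 in NUP93-KO and at 4556 and 4834 in NONT (-0.35 ± 0.05, limma adjusted p = 0.00322). KPNB1 was the only member called whichever library was left out, but it was not called when libraries were scaled to mitochondrially encoded mRNAs (adjusted p = 0.371), with only the 4 triptolide libraries (0.0699) or without the trend (0.0506). IPO8 (-0.52), TNPO3 (-0.41), KPNA3 (-0.34), XPO5 (-0.31) and CSE1L (-0.22) each lost their call without NUP93-KO replicate 1, with adjusted p-values of 0.139, 0.0632, 0.0957, 0.0908 and 0.0853, and NUP188 (0.096) and NUP98 (0.0687) did so as well. All 7 also lost it without NUP93-KO replicate 2 (adjusted p = 0.0869 to 0.167) and without NONT replicate 2 (0.102 to 0.174), and IPO8, TNPO3, XPO5 and NUP188 without NONT replicate 1 (0.0566 to 0.102).

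Genes of mRNA export and decay had no call. None of 21 mRNA export factors, 24 genes of the RNA exosome and its cofactors and 33 genes of deadenylation, decapping and 5′ to 3′ decay was called by limma at the same total, and their medians were -0.12, -0.03 and -0.07. At an unadjusted p below 0.05, 1 was higher and 4 lower in the first list, 3 and 2 in the second, and 1 and 3 in the third. Examples of high level were ALYREF, an export adaptor, at 1719 and 1685 in NUP93-KO and 1971 and 1724 in NONT, and XRN2, a nuclear 5′ exonuclease, at 1967 and 1823 against 1830 and 1989. Both groups overlapped for XRN2. On the spike-in scale 11, 12 and 18 genes of these lists were called higher, beside 50.4% of all genes.

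Of 20 genes of RNA polymerase II and TFIIH, CDK7, the kinase of TFIIH, was called, at 40.7 and 38.3 in NUP93-KO and at 9.68 and 6.93 in NONT (2.14 ± 0.45, limma adjusted p = 0.0187). CDK7 passed the filter on the compared libraries through NUP93-KO alone, which tilts this count towards higher. With genes kept by the untreated libraries, 1 of 22 members was called higher and 0 lower. Without drug CDK7 differed by -1.03 (limma adjusted p = 0.395), and its adjusted p after triptolide was 0.0763 and 0.0831 without NUP93-KO replicates 1 and 2 and 0.0979 without NONT replicate 2. None of 13 P-TEFb and transcription kinase genes was called by limma, beside 0 higher and 1 lower unadjusted. PTBP1, an RNA-binding splicing regulator, stood at 2937 and 2922 in NUP93-KO and at 3646 and 3528 in NONT (-0.29 ± 0.06, limma adjusted p = 0.0223), and BCL2L12, a BCL2-family protein, stood at 411 and 397 against 415 and 391. BCL2L12 overlapped between groups, and the call of PTBP1 was lost whichever of the 4 libraries was left out (adjusted p = 0.0619 to 0.102).

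The large stable classes had few calls. Of 83 cytosolic ribosomal protein genes 1 was called higher (RPL13A, 0.19) and 0 lower, with a median of -0.02. The 13 mitochondrially encoded mRNAs had 0 called by limma, beside 1 higher and 2 lower unadjusted, and a median of -0.02. Of 78 nuclear-encoded respiratory chain genes 1 was called in each direction (NDUFB8, 0.32, and NDUFB5, -0.36), and of 77 mitochondrial ribosomal protein genes 1 was called higher (MRPL41, 0.33). Proteasome subunits had PSMD2 higher (0.16) and PSMA1 lower (-0.23) of 36. Without NUP93-KO replicate 2 the calls of RPL13A, NDUFB8, NDUFB5, MRPL41, PSMD2 and PSMA1 were lost, with adjusted p-values of 0.214, 0.147, 0.0999, 0.153, 0.0993 and 0.141. The same 6 calls were lost without NONT replicate 2 (adjusted p = 0.0526 to 0.203), those of NDUFB5, MRPL41, PSMD2 and PSMA1 without NUP93-KO replicate 1 (0.103 to 0.14), and those of RPL13A, NDUFB8 and NDUFB5 without NONT replicate 1 (0.0574 to 0.116).

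Proliferation genes had few calls at the adjusted threshold but leaned lower. At an unadjusted limma p below 0.05, 11 of 24 mitosis genes were lower and 1 higher. Of 37 DNA replication genes 10 were lower and 1 higher, beside 9.93% and 12.3% of all genes. After adjustment 2 mitosis genes were called lower, KIF20A (-0.40) and CDK1 (-0.36), with a list median of -0.18, beside -0.12 without drug. Of the replication genes 1 was called lower, GINS3 (-1.51), with a list median of -0.15, beside -0.01 without drug. All 3 lost their calls without NUP93-KO replicate 2 (adjusted p = 0.184, 0.168 and 0.107) and without NONT replicate 2 (0.168, 0.167 and 0.226), and CDK1 and GINS3 also without NUP93-KO replicate 1 (0.0828 and 0.157). Of 17 glycolytic enzymes, HK2 (0.50) and PGK1 (0.18) were called higher and ENO2 (-0.37) and ENO1 (-0.14) lower, and all 4 lost their calls without NONT replicate 2 (adjusted p = 0.104, 0.128, 0.135 and 0.165) and without NUP93-KO replicate 2 (0.132, 0.165, 0.0842 and 0.193), and PGK1, ENO2 and ENO1 also without NUP93-KO replicate 1 (0.0838, 0.123 and 0.113). Of 204 numbered zinc finger genes tested, 13 were called higher and 5 lower, beside 4.3% and 2.9% of all genes, with a median of 0.10. Among them were ZNF114 (2.14) and ZNF432 (2.20) higher and ZNF430 (-3.39) and ZNF793 (-2.40) lower, at levels below 50 in every library. ZNF432 and ZNF430 lost their calls without NUP93-KO replicates 1 and 2 and NONT replicate 2 (adjusted p = 0.138 to 0.213 and 0.0609 to 0.148), ZNF793 lost its call whichever library was left out (0.0744 to 0.0976), and ZNF114 kept its call in all 4 such fits. Among the 11 mesenchymal markers tested, ENG (0.50) was called higher, and COL1A1, CDH2 (-0.35) and VIM (-0.14) lower. Without NUP93-KO replicate 1 the calls of ENG, CDH2 and VIM were lost, with adjusted p-values of 0.0556, 0.0866 and 0.0523. They were also lost without NONT replicate 2 (0.0544, 0.076 and 0.107), and those of CDH2 and VIM without NUP93-KO replicate 2 (0.0716 and 0.169).

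Differences were also described along features of the genes. Retention was taken from the EXOSC5-KO libraries, as the triptolide minus untreated difference at the same total. With the genes cut into 10 bins of equal size, in the bin that retained least there, whose median retention was -2.59, the NUP93-KO minus NONT difference had a median of 0.21 after triptolide and -0.02 without drug. In the next bin it was 0.05, and in the other 8 it lay between -0.03 and 0.04. The lowest bin held 93 of the higher calls (7.85% of its 1185 genes) and 17 of the lower calls (1.43%), beside 4.3% and 2.9% of all genes. Higher calls were also frequent in bins 8 and 9, with 88 (7.43%) and 79 (6.67%), so they were not particular to the lowest bin. These 93 genes had a median difference of 1.00, beside 0.05 without drug, and 1 of them was called higher without drug. The other 416 higher genes had a median of 0.65, beside 0.26 without drug, where 69 were called. Both sets were picked by their triptolide values, so a larger median after triptolide than without drug is partly built in. The sets also differed in level, with medians of 37.9 for the 93 genes and 522 for the 416.

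Level moved with retention, and level over the compared libraries is also the quantity the filter used. The median level of the lowest retention bin was 31.5, and in the bin of genes of lowest level the median difference was likewise 0.21, beside 0.07 without drug. Among genes with a mean of at least 100, the lowest retention bin had a median of 0.05 after triptolide and -0.06 without drug. When genes were kept by their untreated libraries instead, the lowest retention bin had a median of 0.27 after triptolide and -0.01 without drug, and the bin of lowest untreated level 0.17 and 0.14. The parts of level and retention in the shift of the lowest bin cannot be told apart by these medians. Over bins of GC content the median was -0.07 in the lowest and 0.12 in the highest, and without drug it was 0.00 and 0.10. Along transcript length all bins lay between 0.00 and 0.03, and along 3′ UTR length between -0.02 and 0.04.

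**Figure D4:**
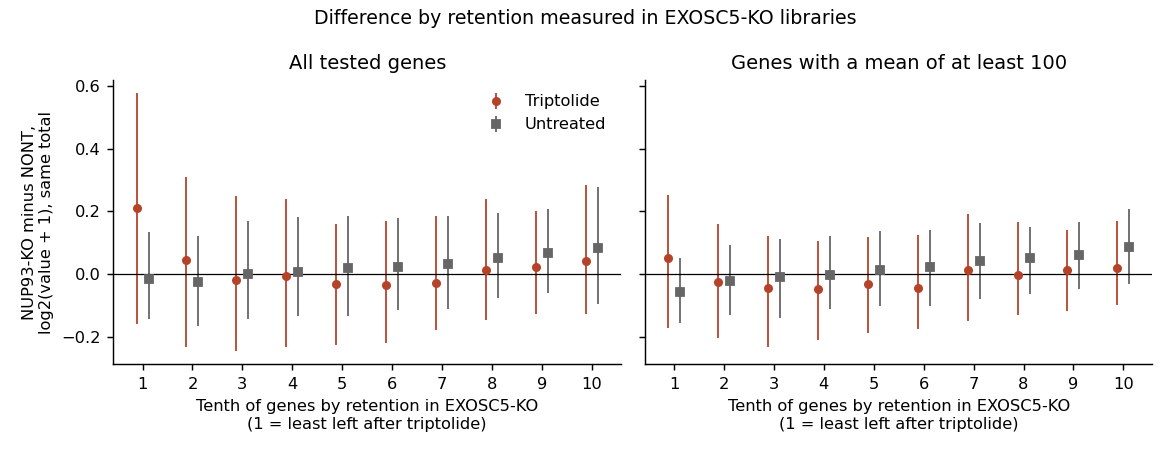
Median NUP93-KO minus NONT difference at the same total in log2(value + 1) (vertical axis, bars from the lower to the upper quartile over genes) by bin of retention in EXOSC5-KO (horizontal axis, 1 is least left), for all tested genes (left) and genes with a mean of at least 100 (right). The lowest bin is at 0.21 after triptolide and -0.02 without drug on the left, and at 0.05 and -0.06 on the right.

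The AU-rich nonamer TTATTTATT, a motif of many unstable mRNAs, was searched on the sense strand of the 3′ UTR of each canonical GENCODE transcript. It was present in 43 of 484 higher genes with a 3′ UTR (8.88%), in 33 of 338 lower genes (9.76%) and in 9.61% of all tested genes. The shares of both called sets were thus close to that of all genes. Windows of 29 bases from 3 genes called higher and 1 called lower are shown, with the nonamer in capitals, because the motif occurs in both directions of call.
CXCL8: atgtaaagtaTTATTTATTtgaatctaca
PLK2: aataaactttTTATTTATTacagcccaaa
GDF15: tataagtctgTTATTTATTattaatttat
TPM1: tttttacttcTTATTTATTgacattttag
In GRCh38 they lie at chr4:73742664-73742692, chr5:58454066-58454094, chr19:18389054-18389082 and chr15:63066110-63066138, with PLK2 on the minus strand and the others on the plus strand. CXCL8 (1.79), PLK2 (1.85) and GDF15 (1.33) were called higher and TPM1 (-0.80) lower.

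By chromosome, the median difference at the same total lay between -0.03 and 0.07 for the 23 nuclear chromosomes. On chromosome 16, which carries NUP93, the 303 tested genes before the cut site had a median of 0.04 with 9 called higher and 2 lower, and the 207 genes after it a median of -0.06 with 5 called higher and 11 lower. Without drug the medians were 0.05 and -0.01. NUP93 spans the cut site and was counted in neither.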

How the data were processed

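The study's methods describe sequencing of polyadenylated RNA from counted cells with ERCC spike-ins. Reads were pseudoaligned by the authors to GRCh38 transcripts (kallisto 0.46.1), collapsed to genes in tximport, restricted to protein-coding genes and scaled by size factors that DESeq2 estimated on 92 ERCC RNAs. What they deposited is thus a normalised signal rather than counts. The annotation release is not given in the sources used here. Between 33.1% and 36.2% of low values were whole multiples of the approximate worth of 1 read (within 0.05), so reads could not be recovered and no test for counts was run.

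Kept were genes whose mean over the 4 triptolide libraries of NUP93-KO and NONT was at least 10, with ERCC rows left out. Because this filter uses the compared values, a gene of low level could pass it through 1 group alone. Values were analysed as log2(value + 1) with limma 3.58.1 in R 4.3.3 (lmFit, eBayes with trend, 6 group means, 12 libraries, two-sided, Benjamini-Hochberg). The fit was tested on simulated data with independent noise per gene and library. That simulation held no shift of whole libraries and does not cover such shifts. Of the 11848 genes, 624 had no match in GENCODE 44 and are named by ID, and 362 rows were identical to another row, among them SAA1. Sums were compared with exact permutation tests over 6 arrangements. Summaries and plots were made in Python 3.11.15 (pandas 2.3.3, NumPy 2.4.6, matplotlib 3.10.9, SciPy 1.17.1). Alternatives changed the pseudocount, filter, trend, scaling, replicate block or libraries.

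The members and gene lists were chosen with earlier results of these data known. Named were NUP93, up to 4 members per list (by difference among those past the threshold, otherwise by level), and per direction the 12 genes at the same total and 5 on the spike-in scale with the largest difference among those past the threshold, with a group mean of at least 100 and no overlap; on the spike-in scale 4 lower genes met this. IER2, KLF10, FOSL2, CCN2, ATF3, NR4A1, SRF, ACTB, CNN2, TPM2, FLNA, CDKN1A, COL12A1, LAMC1, COL6A1, COL6A3, ATF4, HSPA5, HMGCS1, FDPS, XPO5, CSE1L, HES1, SIK1, MCL1, WEE1 and BCL2L12 were named after their values were seen. Some genes are not reported here. No pairing of samples by replicate number was seen at the same total, where deviations from group means correlated at -0.04 to 0.05 over 15 pairs of groups. This does not cover shifts of whole libraries, and the labels do not say whether replicates were paired.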

Additional observations from a re-analysis of the deposited data

Results flagged for a closer look

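MYC was flagged by the test of the difference in response. Its level after triptolide was higher in 2 of 2 NUP93-KO libraries, but 25.1% of all genes lay apart in this direction, so that is no support. The NUP93-KO minus NONT difference of MYC at the same total was larger after triptolide than without drug by 2.71 (log2, SE 0.27, limma adjusted p = 0.0148). It was 1.84 with a pseudocount of 5 (adjusted p = 0.0606), and over left-out libraries it ran from 2.61 (adjusted p = 0.055, without NUP93-KO replicate 2) to 2.80 (adjusted p = 0.0232, without NUP93-KO replicate 1).

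GADD45A was flagged by the same test, with a difference in response of 1.55 (log2, SE 0.17, limma adjusted p = 0.019). Its level after triptolide was likewise higher in 2 of 2 NUP93-KO libraries, which is no support either. The adjusted p of GADD45A was 0.055 without NUP93-KO replicate 2, 0.0606 with a pseudocount of 5, 0.0552 with the replicate block and 0.0785 when scaled to mitochondrially encoded mRNAs. No cause was tested for either gene.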

How the results depend on the processing

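Leaving out 1 of the 4 libraries gave 957 to 6036 higher and 14 to 29 lower genes on the spike-in scale, 207 to 635 higher and 137 to 301 lower genes at the same total, and 0 to 57 genes in the difference of responses. Of the 509 higher and 343 lower genes at the same total, 139 and 83 were called in all 4 such fits, and all kept their sign. The lower count on the spike-in scale was 10 with a mean of at least 50 and 25 with no filter. At the same total, counts of higher and lower genes were 328 and 163 without the trend, 58 and 24 with only the 4 triptolide libraries, and 137 and 20 when scaled to mitochondrially encoded mRNAs. The difference of responses gave 0 genes with a pseudocount of 5 (1169 at an unadjusted p below 0.05), 1 with a mean of at least 50 and 1 with the replicate block. Because no pairing by replicate number was seen, the block served only as an alternative. With it the counts were 449 higher and 279 lower at the same total and 5536 and 19 on the spike-in scale. A GC correction, chosen after seeing the data, gave 457 higher and 451 lower genes, with 442 and 334 of the original calls among them. Median-of-ratios scaling gave 454 and 394. A filter on the untreated libraries, also chosen after seeing the data, gave 512 and 330. Of the genes named at the same total, 55 lost their calls when scaled to mitochondrially encoded mRNAs and 42 kept their status. The GC correction ended 6 of the calls and the filter on the untreated libraries 1. With only the 4 triptolide libraries in the fit, 67 results named on either scale lost their calls and 39 kept their status. The ratio of totals ran from 1.43 to 1.74 and the median spike-in difference from 0.53 to 0.79 over left-out libraries. No alternative reversed a called gene named here. The causes were not tested. With 2 libraries per group, 8.88 M to 10.2 M reads and a spike-in scale that 1 library can move, small differences and low genes could not be resolved.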
